A study of Mus musculus with 30 samples.

Results

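Nr6a1 and its antisense gene Nr6a1os were followed as 2 of the 54134 gene rows of a count table that covers 30 mouse libraries. The rows were taken by gene symbol, with no use of their values. Libraries came from Bruce4 embryonic stem cells (ESCs) taken through a culture protocol for neuromesodermal progenitors (NMPs), a caudal embryonic population whose descendants enter both spinal cord and mesoderm. The 10 groups were 5 stages of wildtype cells and the same 5 stages of Nr6a1-/- cells, with 3 libraries each. All cells received FGF2 from the start. Cells at d2 had FGF2 for 48 h, those at d2.5 and d3 had in addition the Wnt pathway agonist CHIR99021 for 12 h and 24 h, and those at d4 had both for a further 24 h. Cells called d4G had the same as d4, with Gdf11 added for that last 24 h.

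The Nr6a1-/- cells were 1 clone made with CRISPR/Cas9, which carries a different deletion in exon 4 on each allele, so that genotype and clone are the same split in every comparison. The line was kept on feeder cells, which were removed before differentiation. The labels number the replicates 1 to 3 and do not say whether they were separate cultures, so that p-values measure the spread between these samples, which may be technical.

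Nr6a1, also known as germ cell nuclear factor, is an orphan nuclear receptor that binds DNA and is best known for repressing Pou5f1 as pluripotent cells differentiate. Gdf11 is a secreted factor of the transforming growth factor β family that acts through activin receptors and the transcription factors Smad2 and Smad3, and it is known for setting the position at which trunk gives way to tail. Nr6a1os is a long non-coding RNA transcribed from the opposite strand within an intron of Nr6a1.

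In GENCODE M21 (GRCm38), Nr6a1 occupies chr2:38723370-38927688 on the minus strand and Nr6a1os occupies chr2:38823257-38852370 on the plus strand. Nr6a1os lies whole inside intron 3 of the 11-exon long isoform of Nr6a1, an intron of 112165 bases. Their annotated exons, 10824 and 801 bases in all isoforms, share 0 bases, and the 3′ ends of the 2 genes are 129.0 kb apart. The libraries were primed at the poly(A) tail. No source used here says whether strand was used in counting. If it was not, unspliced Nr6a1 RNA read within the exons of Nr6a1os would be counted as Nr6a1os. Sense and antisense could then not be told apart there, and this was not tested. Exon 4, which carries the deletions, is a fully coding exon of 243 bases at chr2:38760187-38760429, and 5511 transcript bases separate its end from the 3′ end of the long isoform. A count at the 3′ end therefore does not read the deleted part and does not check the genotype labels.

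Exon 4 is shown because both mutant alleles are altered in it. It is written 5′ to 3′ on the minus strand, with the 10 in-frame cysteine codons in capitals, since cysteines hold the zinc ions of a nuclear receptor's DNA-binding domain. The promoter windows of both genes are shown because their transcripts changed differently under Gdf11. Each runs from 250 bases before to 50 bases after a RefSeq start site (GRCm38.p6), 5′ to 3′ on the strand of its gene. Capitals in them mark the match to CAGAC, a Smad-binding box, in the Nr6a1os window, and the matches to the nuclear receptor hexamer AGGTCA in the window of the short Nr6a1 isoform, all read on the opposite strand.
Nr6a1 exon 4 (chr2:38760187-38760429, minus): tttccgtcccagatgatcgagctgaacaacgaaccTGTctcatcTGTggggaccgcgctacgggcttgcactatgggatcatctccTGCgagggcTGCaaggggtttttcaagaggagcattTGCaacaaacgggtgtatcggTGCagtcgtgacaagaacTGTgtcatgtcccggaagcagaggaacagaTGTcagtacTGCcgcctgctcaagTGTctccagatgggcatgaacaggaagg
Nr6a1os promoter (chr2:38815722-38816021, plus): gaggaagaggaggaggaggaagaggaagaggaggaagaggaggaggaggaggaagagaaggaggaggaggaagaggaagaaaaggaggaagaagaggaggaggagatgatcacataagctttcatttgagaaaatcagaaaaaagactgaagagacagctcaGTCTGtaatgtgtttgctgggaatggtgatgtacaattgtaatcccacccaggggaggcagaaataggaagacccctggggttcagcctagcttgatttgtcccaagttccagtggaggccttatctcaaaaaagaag
Nr6a1 short isoform promoter (chr2:38784466-38784765, minus): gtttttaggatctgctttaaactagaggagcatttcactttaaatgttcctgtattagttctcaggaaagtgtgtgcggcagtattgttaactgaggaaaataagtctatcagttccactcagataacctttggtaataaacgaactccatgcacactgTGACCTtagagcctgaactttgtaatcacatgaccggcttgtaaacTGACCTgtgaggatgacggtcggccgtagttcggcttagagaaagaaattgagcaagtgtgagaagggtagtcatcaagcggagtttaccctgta
Nr6a1 long isoform promoter (chr2:38926412-38926711, minus): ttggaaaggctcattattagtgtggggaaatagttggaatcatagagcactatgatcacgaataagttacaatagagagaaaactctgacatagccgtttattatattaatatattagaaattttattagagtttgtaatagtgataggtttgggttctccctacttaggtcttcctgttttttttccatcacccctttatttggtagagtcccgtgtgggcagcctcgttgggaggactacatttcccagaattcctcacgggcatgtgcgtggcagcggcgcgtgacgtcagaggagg

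The Nr6a1os window held 1 match to CAGAC, a motif found on either strand in 49.7% of 27025 promoter windows of this length, and 4 matches to its core AGAC, which is in 88.0% of windows. It held no match to AGGTCA. The window of the short Nr6a1 isoform held 2 matches to AGGTCA, which is in 16% of windows, and none to CAGAC. That of the long isoform held neither of them, and held 1 match to the Smad-binding letters GGCGC, present in 37.1% of windows. Each Nr6a1 window also held 1 match to the core AGAC. The Smad palindrome GTCTAGAC (0.211% of windows), the extended hexamer TCAAGGTCA (0.407%) and the direct repeat of the hexamer without spacer, named DR0 (0.0037%), were in none of the windows of either gene. RefSeq gives 8 start sites of Nr6a1os, from 38815972 to 38816086, and the first lies 7.29 kb upstream of the GENCODE start. These matches are descriptions of letters, and no binding was measured.

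Library totals ran from 1570714 to 3688197 counts, with a median of 2366002, and a count of 0 in a library would allow up to 0.813 to 1.91 CPM, the usual unit of counts set relative to the total of a library. Such limits and the counting intervals below cover counting error only. All libraries had at least 1 count of both genes. Levels are given as CPM scaled by TMM factors, not per base of gene length, since 3′ ends were read. Of the markers for the labelled stages, 4 of 4 epiblast genes (Pou5f1, Fgf5, Otx2, Nanog) had counts at d2. Their summed level was 119 to 127 CPM in wildtype and 166 to 200 CPM in Nr6a1-/- libraries. None of the 4 was called between genotypes at d2 by the test given below, which called 4.07% of all genes, and Nanog was on the lower side (log2 -0.39). The 5 NMP genes (T, Sox2, Nkx1-2, Cdx2, Cdx4) summed to 694 to 724 CPM in wildtype and 972 to 1090 CPM in Nr6a1-/- libraries at d3. At d4G the order was reversed, with 404 to 430 CPM in wildtype and 196 to 223 CPM in Nr6a1-/- libraries. Replicate 2 of d4 wildtype stood apart, with 46 counts of Otx2 and 32 of Fgf5, both genes of d2 cells. Replicate 1 of d4 Nr6a1-/- stood apart as well, with a chi-square per gene of 5.64 and 6.68 against the other replicates of its group, which gave 2.58 against each other. In d2.5 wildtype, replicate 3 gave 2.88 and 4.61 against the others, which gave 2.14 against each other. The gene lists were not retested without that library. Values of Nr6a1 and Nr6a1os that rest on either of the d4 libraries named, and reported calls of other genes that either of them changed, are given with and without it.

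Nr6a1 was the far more abundant transcript until Gdf11 was added. It rose between d2.5 and d3 in both genotypes, fell again by d4, and fell further under Gdf11. In wildtype cells the 3 libraries held 83.5, 87.1 and 86.4 CPM of Nr6a1 at d2, and 102, 89.4 and 102 CPM at d2.5. The d3 libraries held 178, 186 and 167 CPM, and the d4 libraries 96.8, 99.5 and 96.7 CPM. With Gdf11 the values were 17.2, 19.1 and 17.7 CPM. The d3 libraries thus lay above, and the d4G libraries below, all other wildtype libraries.

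The mutant transcript, in Nr6a1-/- cells, stood at 88.0, 95.9 and 101 CPM at d2 and at 110, 115 and 111 CPM at d2.5. Values of 292, 256 and 314 CPM followed for d3, then 189, 224 and 255 CPM for d4. With Gdf11 the values were 18.8, 29.3 and 37.7 CPM. The mutant libraries lay above all 3 wildtype libraries of their stage at d2, d2.5, d3 and d4, narrowly so at d2, and overlapped with them at d4G.

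Nr6a1os was scarce. Wildtype libraries held 1, 2 and 3 counts of it at d2, and 2, 1 and 1 counts at d2.5, all at or under the limit of 3 counts. The d3 libraries held 7, 6 and 9 counts and the d4 libraries 3, 9 and 6 counts. With Gdf11 they held 20, 26 and 25 counts, so that d4G wildtype was the only group of the 10 with 20 or more counts in any library. In CPM its libraries stood at 9.30, 10.6 and 10.5, above all other libraries of the series, of which the highest was 6.77.

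Counts of Nr6a1os in Nr6a1-/- cells were 3, 2 and 7 at d2, and 2, 4 and 4 at d2.5. The d3 libraries held 11, 7 and 11, and the d4 libraries 9, 14 and 9. With Gdf11 the counts were 9, 8 and 9, within or below the range of the mutant d4 libraries. In CPM the mutant d4 libraries held 3.90, 6.77 and 3.83 and the mutant d4G libraries 4.33, 5.09 and 3.86, which overlap.

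**Figure D1:**
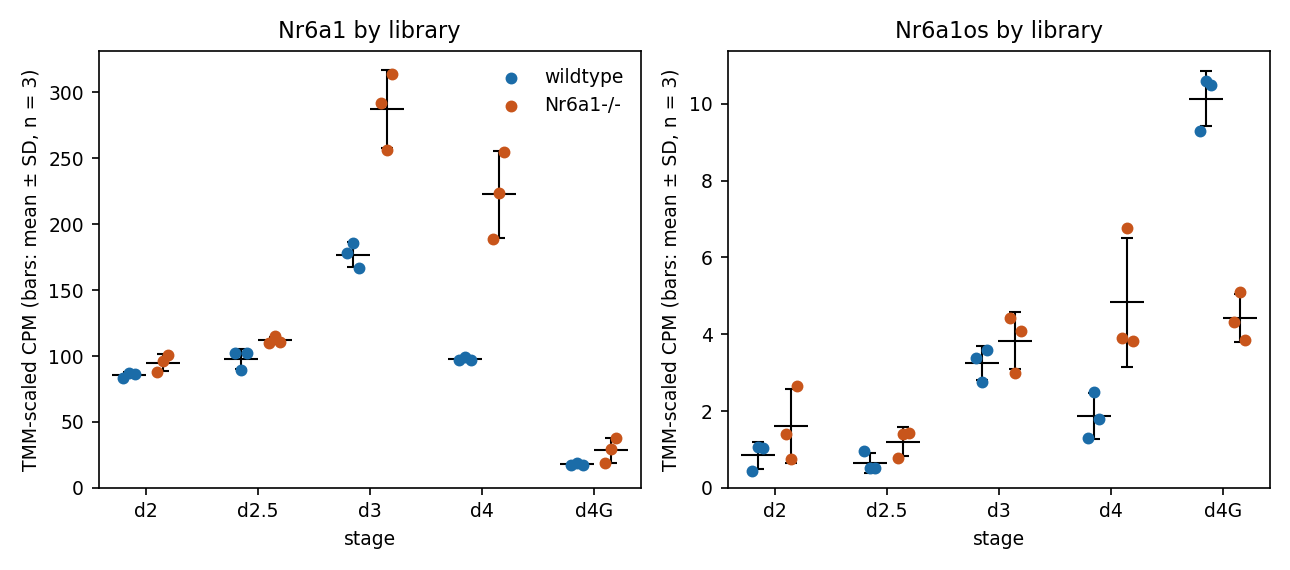
Level of Nr6a1 (left) and Nr6a1os (right) in TMM-scaled CPM in each library, by stage, for wildtype and Nr6a1-/- cells. Points are libraries, and bars are the mean and SD of 3. Wildtype Nr6a1os reached 10.1 CPM at d4G, where wildtype Nr6a1 was at its lowest mean of 18.0 CPM.

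Ordered by mean, the levels of Nr6a1 ran from d3 Nr6a1-/- (287 CPM) through d4 Nr6a1-/- (223), d3 wildtype (177), d2.5 Nr6a1-/- (112), d2.5 wildtype (97.9), d4 wildtype (97.6), d2 Nr6a1-/- (94.8), d2 wildtype (85.7) and d4G Nr6a1-/- (28.6) to d4G wildtype (18.0). Of the 9 pairs of neighbours in this order, 6 did not overlap. Those that overlapped were d2.5 and d4 wildtype, d4 wildtype and d2 Nr6a1-/-, and the 2 genotypes at d4G. For Nr6a1os the order was d4G wildtype (10.1 CPM), d4 Nr6a1-/- (4.84), d4G Nr6a1-/- (4.43), d3 Nr6a1-/- (3.83), d3 wildtype (3.25), d4 wildtype (1.87), d2 Nr6a1-/- (1.61), d2.5 Nr6a1-/- (1.20), d2 wildtype (0.844) and d2.5 wildtype (0.656). Here 7 of 9 neighbouring pairs overlapped, and those apart were d4G wildtype from d4 Nr6a1-/-, and d3 from d4 wildtype.

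To ask how the mutant transcript was expressed, the genotypes were compared at each stage by the quasi-likelihood test of edgeR, calling genes at a Benjamini-Hochberg FDR under 0.05 over the 12149 genes tested. In Nr6a1-/- cells the level of Nr6a1 was 1.62-fold that of wildtype cells at d3 (log2 fold change 0.70, SE 0.109, FDR = 1.74e-05) and 2.28-fold at d4 (1.19, SE 0.113, FDR = 2.27e-10). At d4G it was 1.60-fold (0.67, SE 0.183, FDR = 0.0142). At d2 and d2.5 the values were 0.15 and 0.19, with 95% intervals of -0.099 to 0.40 and -0.049 to 0.44, and neither passed (edgeR FDR = 0.597 and 0.391). In bulk samples fewer cells of a type and less RNA per cell cannot be told apart. The test called 4.07%, 6.45%, 10.8%, 18.9% and 7.9% of all genes in order of stage, d4G being the last. The d4 difference was 1.19 without d4 wildtype replicate 2 (FDR = 7.15e-09) and 1.28 without d4 Nr6a1-/- replicate 1 (FDR = 4.96e-11). The d4G difference was not called without d4G Nr6a1-/- replicate 3 (0.37, FDR = 0.365) or d4G wildtype replicate 1 (0.64, FDR = 0.051), or when only the 2 groups compared were fitted (FDR = 0.0854), with FDR from 0.000324 to 0.365 over 13 alternatives.

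Nr6a1os differed between genotypes at d4 and d4G, in opposite directions. At d4 it was 2.43-fold higher in Nr6a1-/- cells (log2 fold change 1.28, SE 0.38, edgeR FDR = 0.0148). At d4G it was 2.31-fold lower (-1.21, SE 0.307, FDR = 0.00814), with 26 counts in the mutant and 71 in the wildtype libraries, a ratio of pooled CPM of 0.416 (95% counting interval 0.255 to 0.660). At d2, d2.5 and d3 the values were 0.89, 0.82 and 0.24, none past the threshold (FDR = 0.546, 0.614 and 0.78), and at d3 the 95% interval was -0.57 to 1.04. The d4 call did not hold when mutant replicate 2 was left out (0.97, FDR = 0.169), nor without replicate 1 (1.13, FDR = 0.0548) or 3 (1.21, FDR = 0.0544) of the wildtype, nor in DESeq2 (1.30, FDR = 0.065). Without d4 wildtype replicate 2 it was 1.54 (FDR = 0.0181), without d4 Nr6a1-/- replicate 1 it was 1.39 (FDR = 0.0134), and FDR ran from 0.0134 to 0.169 over 12 alternatives. The d4G call did not hold without d4G Nr6a1-/- replicate 3 (-1.12, FDR = 0.0548) or in DESeq2 (-1.22, FDR = 0.0706), with FDR from 0.00632 to 0.0706 over 13 alternatives.

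Markers of other cells also moved with genotype. Of 4 endoderm markers, Sox17, Foxa2 and Gata4 had counts and Cer1 was at 0 in all 30 libraries. Their summed level was already apart at d2, with 7.43 to 11.2 CPM in wildtype and 0.374 to 3.79 CPM in Nr6a1-/- libraries. At d3 it was 29.4 to 33.1 CPM against 1.86 to 5.62 CPM. It was 38.7 to 45.0 CPM in d4 wildtype and 2.98 to 6.29 CPM in d4 Nr6a1-/- libraries, and 43.8 to 52.6 CPM against 2.40 to 6.01 CPM at d4G. All 6 fibroblast markers (Col1a1, Col1a2, Col3a1, Postn, Dcn, Thy1) had counts in every group. Their sum was 47.4 to 55.2 CPM in wildtype and 61.4 to 74.8 CPM in mutant libraries at d3. For d4 the ranges, in the same order, were 25.7 to 29.6 CPM and 17 to 22.1 CPM. For d4G they were 26.5 to 37.9 CPM and 33.0 to 43.3 CPM. The fibroblast markers did not move together, and 4 of them could be tested. At d3 Thy1 was higher (log2 1.42, edgeR FDR = 0.00164) and Col1a1 lower (-1.11, FDR = 0.0305) in Nr6a1-/- cells. At d4G only Thy1 was called, and it was lower there (-2.55, FDR = 0.000515). Of the 5 NMP genes, T (0.71) and Nkx1-2 (0.77) were called higher in Nr6a1-/- cells at d3, beside 10.8% of all genes called. At d4G T (-0.53), Sox2 (-1.52), Cdx2 (-0.96) and Cdx4 (-1.71) were called lower, beside 7.9%. The part of any of these marker sets in the levels of Nr6a1 and Nr6a1os was not tested.

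Stage steps were compared next, within each genotype. From d2.5 to d3, the second 12 h of Wnt activation, Nr6a1 rose 1.81-fold in wildtype cells (log2 0.85, SE 0.118, FDR = 1.9e-06) and 2.57-fold in Nr6a1-/- cells (1.36, SE 0.111, FDR = 8.46e-12). From d2 to d2.5 its values were 0.19 and 0.24, neither past the threshold (FDR = 0.268 and 0.145). From d3 to d4 it fell 1.81-fold in wildtype cells (-0.86, SE 0.114, FDR = 4.48e-07), and -0.86 without d4 wildtype replicate 2, and 1.29-fold in Nr6a1-/- cells (-0.37, SE 0.107, FDR = 0.00954). The mutant fall was not called without d4 Nr6a1-/- replicate 1 (-0.27, FDR = 0.0632, 0.00226 to 0.0632 over 13 alternatives). The 3 steps called 25.4%, 11.5% and 21.1% of all genes in wildtype cells, and 24.1%, 15.9% and 25.9% in Nr6a1-/- cells. A comparison and its neighbour share the libraries of the stage between them, so that they are not independent.

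The difference between genotypes in these steps was itself tested. For Nr6a1 it was 0.04 on the log2 scale from d2 to d2.5, 0.51 from d2.5 to d3 (SE 0.162, edgeR FDR = 0.13) and 0.49 from d3 to d4 (SE 0.156, FDR = 0.0543), and none passed the threshold. The last of these was called without d3 Nr6a1-/- replicate 3 (0.55, FDR = 0.0334) or d4 Nr6a1-/- replicate 1 (0.58, FDR = 0.0103), and with a replicate block (0.49, FDR = 0.039), but not without d4 wildtype replicate 2 (0.48, FDR = 0.098), and its FDR ran from 0.0103 to 0.185 over 19 alternatives. The d2.5 to d3 difference was called when only the groups compared were fitted (0.51, FDR = 0.0478). These differences called 0.609%, 0.815% and 5.72% of all genes.

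Nr6a1os rose together with Nr6a1 from d2.5 to d3. In wildtype cells its log2 change was 2.21 (SE 0.587, edgeR FDR = 0.0094), from 4 counts over the group to 22, a ratio of pooled CPM of 4.86 (95% counting interval 1.65 to 19.4). The change in Nr6a1-/- cells was 1.63 (SE 0.438, FDR = 0.00802), from 10 counts to 29, a ratio of 3.19 (1.51 to 7.33). The wildtype rise did not pass in DESeq2 (2.30, FDR = 0.0581, 0.00937 to 0.0581 over 12 alternatives). In a fit of only the groups compared, Nr6a1os had too few counts for this wildtype step to be tested. From d3 to d4 the values were -0.74 (SE 0.44) in wildtype and 0.31 (SE 0.369) in Nr6a1-/- cells, neither past the threshold (FDR = 0.252 and 0.597), and the wildtype value was -0.996 without d4 wildtype replicate 2 and the mutant value 0.43 without d4 Nr6a1-/- replicate 1. From d2 to d2.5 both wildtype groups were at the counting limit, with 6 and 4 counts, and the mutant groups had 12 and 10 counts. The differences between genotypes in these steps did not pass for Nr6a1os either, with FDR of 0.995, 0.865 and 0.311. The last of them had a difference of 1.29 (FDR = 0.273) without d4 wildtype replicate 2 and 1.15 (FDR = 0.241) without d4 Nr6a1-/- replicate 1.

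To ask how Gdf11 acts on the locus, d4G was compared with d4. Nr6a1 fell 5.40-fold in wildtype cells (log2 -2.43, SE 0.15, edgeR FDR = 2.21e-15) and 7.73-fold in Nr6a1-/- cells (-2.95, SE 0.138, FDR = 5.87e-19). All 3 d4G libraries lay below all 3 d4 libraries in both genotypes, with 37 to 47 counts against 222 to 360 in wildtype cells and 39 to 88 counts against 437 to 599 in Nr6a1-/- cells. Among the 9731 genes that reached a mean of 10 CPM in some group, this was the 48th lowest log2 change in wildtype cells and the 30th lowest in Nr6a1-/- cells. Gdf11 changed 28.8% of all genes tested in wildtype and 18% in Nr6a1-/- cells. The wildtype fall was -2.43 without d4 wildtype replicate 2 (FDR = 2.46e-14), and the mutant fall -3.05 without d4 Nr6a1-/- replicate 1 (FDR = 3.19e-19).

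The fall of Nr6a1 did not differ between genotypes past the threshold (difference in log2 change -0.52, SE 0.217, 95% interval -0.96 to -0.077, edgeR FDR = 0.231). It was called only without d4G Nr6a1-/- replicate 3 (-0.80, FDR = 0.0395), among 19 alternatives with FDR of 0.0395 to 0.572. Without d4 wildtype replicate 2 the difference was -0.52 (FDR = 0.266), and without d4 Nr6a1-/- replicate 1 it was -0.61 (FDR = 0.0679). This test of the response called 2.66% of all genes.

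Nr6a1os went the other way in wildtype cells. It rose 5.13-fold under Gdf11 (log2 2.36, SE 0.325, edgeR FDR = 6.52e-07), from 3, 9 and 6 counts to 20, 26 and 25, a ratio of pooled CPM of 5.56 (95% counting interval 3.28 to 9.92). The rise was 2.62 without d4 wildtype replicate 2 (FDR = 4.54e-06). In Nr6a1-/- cells no rise was called. The log2 change there was -0.13, or -0.26 without d4 Nr6a1-/- replicate 1, with a 95% interval of -0.89 to 0.63 (FDR = 0.859), which lies whole below the wildtype interval of 1.70 to 3.02. The difference in response was -2.49 (SE 0.486, FDR = 0.00151), and it stayed past the threshold in all 19 alternatives (FDR 0.000764 to 0.0161), being -2.75 without d4 wildtype replicate 2 (FDR = 0.00181) and -2.61 without d4 Nr6a1-/- replicate 1 (FDR = 0.000764). The mutant d4 libraries, with 4.84 ± 1.68 CPM, started above the wildtype d4 libraries at 1.87 ± 0.592 CPM (SD, n = 3).

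**Figure D2:**
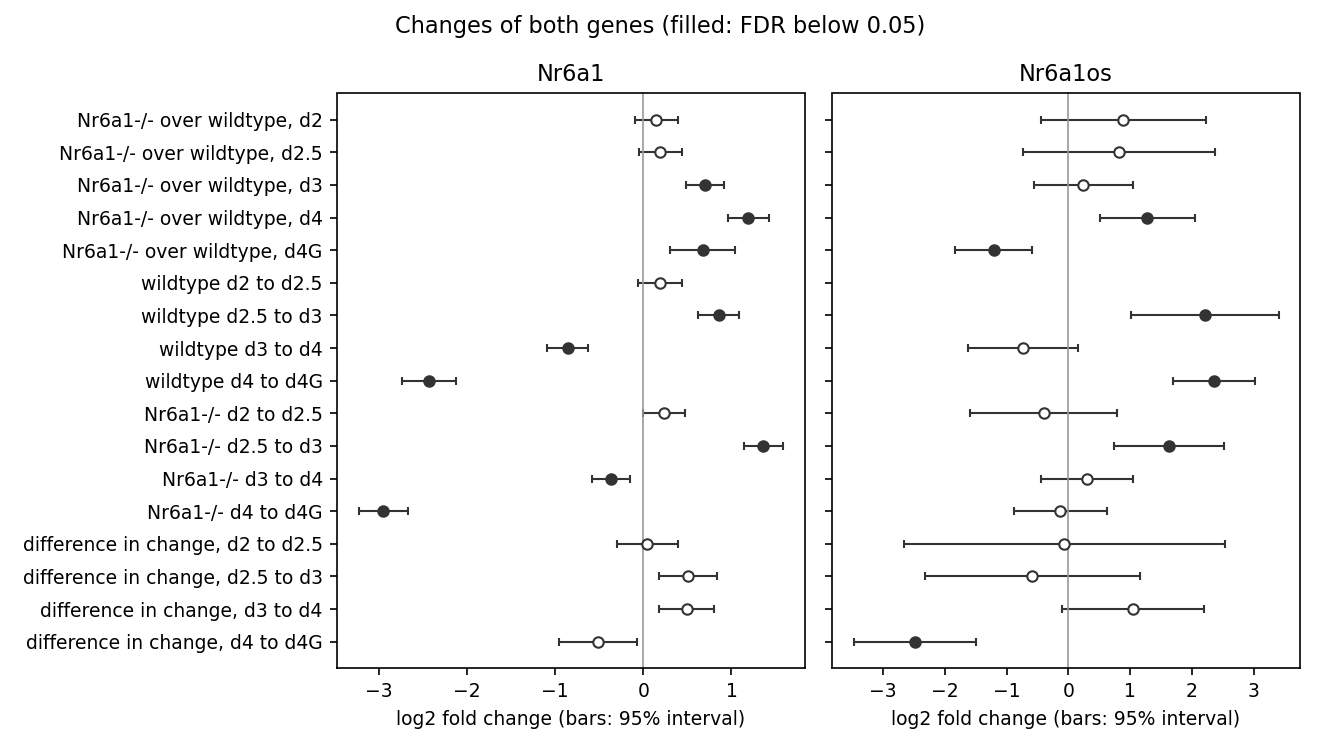
Log2 fold change of Nr6a1 (left) and Nr6a1os (right) in each comparison, from edgeR. Bars are 95% intervals and filled points have an FDR below 0.05, and the wildtype d2 to d2.5 step of Nr6a1os is left out because both groups were at the counting limit. For the d4 to d4G step in wildtype cells the points lie at -2.43 for Nr6a1 and 2.36 for Nr6a1os, and in Nr6a1-/- cells at -2.95 and -0.13.

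The share of Nr6a1os in the counts of both genes was taken in each library, since no scaling of libraries changes it. It is a share of counts, not of molecules made, and it separates the strands only if strand was used in counting. The wildtype share was 0.969 ± 0.388%, 0.661 ± 0.229%, 1.81 ± 0.327% and 1.87 ± 0.554% over d2, d2.5, d3 and d4 (SD, n = 3). At d4G it was 36.0 ± 1.16%, with 35.1% in the lowest and 37.3% in the highest library. Sense counts per antisense count, pooled over the group, went from 50.2 at d4 (95% exact interval 31.6 to 85.1) to 1.77 at d4G (1.32 to 2.41). The mutant share was 1.64 ± 0.901%, 1.06 ± 0.316%, 1.31 ± 0.169% and 2.14 ± 0.732% over the same stages. It was 14.3 ± 4.76% at d4G, from 9.28% to 18.8%, and the pooled ratio went from 46.9 sense counts per antisense count (33.1 to 68.8) to 6.65 (4.39 to 10.5).

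At d2, d2.5, d3 and d4 the shares of both genotypes overlapped, and all 24 libraries before Gdf11 lay at 2.93% or less. The d4 difference, Nr6a1-/- minus wildtype, was 0.275 percentage points, 0.561 without d4 wildtype replicate 2 and 0.337 without d4 Nr6a1-/- replicate 1. At d4G the groups did not overlap, with a difference of -21.7 percentage points between Nr6a1-/- and wildtype cells. The increase under Gdf11 was 34.1 points in wildtype cells, or 34.4 without d4 wildtype replicate 2, and 12.1 points in Nr6a1-/- cells, also without d4 Nr6a1-/- replicate 1, without overlap in either. For these 3 comparisons the exact permutation test, 2-sided, gave p = 0.1, the smallest that 3 against 3 libraries allow, and 0.233 after adjustment over 7 comparisons. The other 4, between genotypes at d2 to d4, gave adjusted exact permutation p of 0.467, 0.28, 0.28 and 0.6. Thus no comparison of shares could pass 0.05 by this test at this number of libraries. In wildtype cells the higher share at d4G held both a fall of Nr6a1 and a rise of Nr6a1os, and in Nr6a1-/- cells the called change was the fall of Nr6a1.

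**Figure D3:**
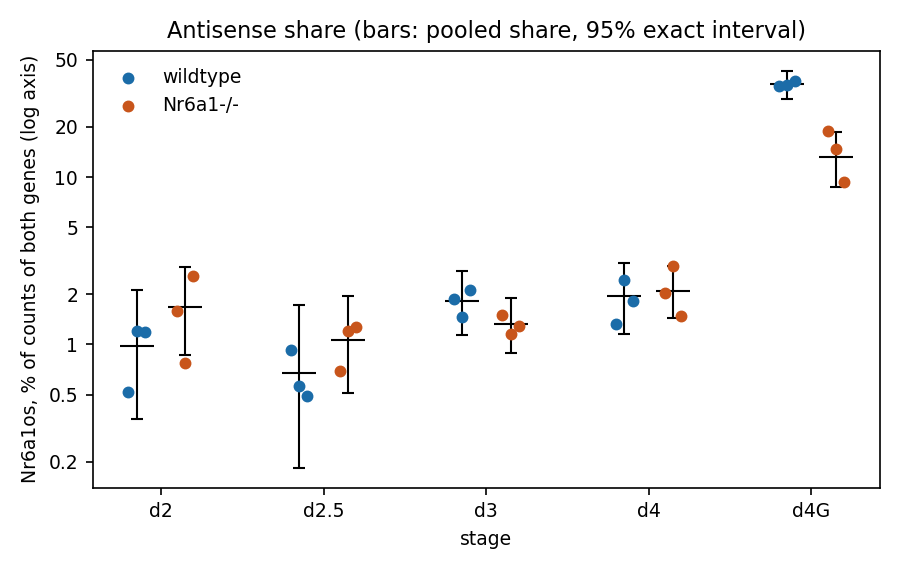
Share of Nr6a1os in the summed counts of Nr6a1 and Nr6a1os, in percent on a log axis, by stage and genotype. Points are libraries, and bars give the pooled share of a group with its 95% exact binomial interval. All libraries before Gdf11 lie at 2.93% or less, and at d4G the wildtype libraries lie at 35.1 to 37.3% and the Nr6a1-/- libraries at 9.28 to 18.8%.

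Other transcript units of intron 3 were read beside Nr6a1os, and their counts too could hold unspliced Nr6a1 RNA. The unit 5730507A11Rik, of unknown function, lies at chr2:38862163-38865533 on the plus strand, and Gm44144 at chr2:38852978-38854937 on the minus strand. The hairpin rows of miR-181a-2 and miR-181b-2, in the same intron, held 4 and 0 counts over all 30 libraries, and mature microRNAs are not read by poly(A) priming. Counts of 5730507A11Rik were 11, 19 and 20 in d3 wildtype, 2, 6 and 3 in d4 wildtype, and 5, 6 and 10 in d4G wildtype libraries. Mutant libraries held 31, 14 and 17 counts for d3, 12, 16 and 14 for d4, and 13, 4 and 7 for d4G. The d4 groups did not overlap between genotypes.

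Like both Nr6a1 and Nr6a1os, 5730507A11Rik rose from d2.5 to d3 in both genotypes (log2 1.76, edgeR FDR = 0.00558 in wildtype and 1.08, FDR = 0.0293 in Nr6a1-/- cells). Again like both, it was higher in Nr6a1-/- cells at d4 (2.35, SE 0.458, FDR = 0.000218). It fell from d3 to d4 in wildtype cells (-2.59, FDR = 3.36e-05), as Nr6a1 did (-0.86), while the change of Nr6a1os was not called (-0.74, FDR = 0.252). The difference of 5730507A11Rik between genotypes in that step passed (2.19, SE 0.569, FDR = 0.0156). Without d4 wildtype replicate 2 the d4 difference, the fall and the difference in step were 2.73, -2.97 and 2.57, and all were still called. Under Gdf11 its values were 1.30 (SE 0.529, FDR = 0.0613) in wildtype and -0.64 (SE 0.397, FDR = 0.29) in Nr6a1-/- cells, neither past the threshold, with a difference of -1.94 (SE 0.662, FDR = 0.12). For Gm44144 no comparison passed. Its Gdf11 values were 0.64 in wildtype (FDR = 0.362) and -0.13 in Nr6a1-/- cells (FDR = 0.882), and its d4 level was 2.24 ± 1.19 CPM for wildtype against 5.43 ± 2.21 CPM for the mutant (SD, n = 3, edgeR FDR = 0.0611), a log2 difference of 1.22, or 0.90 without d4 wildtype replicate 2.

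**Figure D4:**
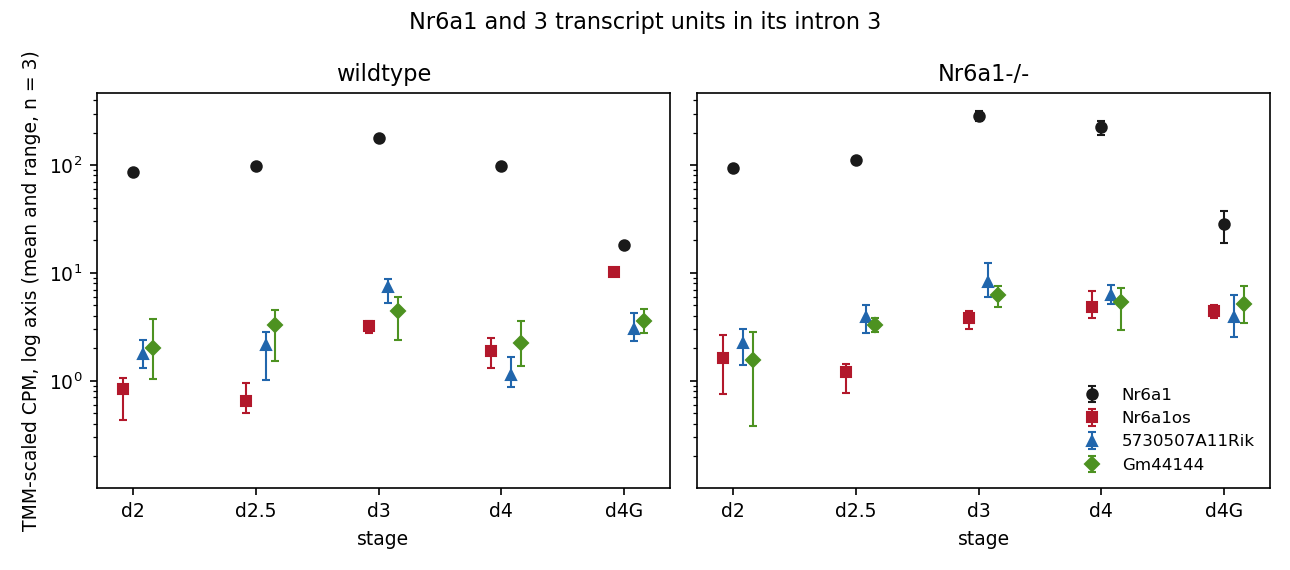
Mean level of Nr6a1 and of 3 transcript units in its intron 3, in TMM-scaled CPM on a log axis, by stage in wildtype (left) and Nr6a1-/- (right) cells. Bars are the range of 3 libraries. From d4 to d4G in wildtype cells Nr6a1 goes from 97.6 to 18.0 CPM, while Nr6a1os goes from 1.87 to 10.1 CPM, 5730507A11Rik from 1.14 to 2.99 CPM and Gm44144 from 2.24 to 3.56 CPM.

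Beyond Nr6a1 and Nr6a1os, 53 annotated genes start within 1 Mb of the locus, and 12 of them, including both intron units above, had enough counts to test. Under Gdf11, 2 of the 12 rose and 1 fell in wildtype cells, where 28.8% of all genes were called, with a median log2 change of -0.085 beside 0.02 for all genes. Among the same 12 in Nr6a1-/- cells, where 18% of all genes were called, 1 rose and 2 fell, with a median of -0.10 beside -0.02. Scai, a cofactor that restrains myocardin-related transcription factors, rose in both (0.64, edgeR FDR = 0.0346 and 0.72, FDR = 0.046). Neither wildtype rise, of Scai and of Ppp6c (0.34), was called without d4 wildtype replicate 2 (0.61, FDR = 0.0921 and 0.20, FDR = 0.309). In Nr6a1-/- cells the rise of Scai (0.57, FDR = 0.196) and the fall of Gm26127 (-1.76) were not called without d4 Nr6a1-/- replicate 1, which left 0 higher and 1 lower. Between genotypes, 0 of the 12 were called at d2, d2.5, d3 and d4G, beside 4.07%, 6.45%, 10.8% and 7.9% of all genes, and 3 were higher and 1 lower at d4, beside 18.9%. The d4 calls were 5730507A11Rik, Olfml2a (2.52), Gm26127 (1.35) and Arpc5l (-0.32), a subunit of the Arp2/3 complex that nucleates actin. That of Gm26127 was lost without d4 wildtype replicate 2 (1.04, FDR = 0.0794) and without d4 Nr6a1-/- replicate 1 (0.90, FDR = 0.129).

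The pathway through which Gdf11 signals was read from a list of feedback genes of Smad2 and Smad3, of which 6 of 7 could be tested. In wildtype cells 6 of 6 rose under Gdf11, beside 1741 higher among the 12149 genes tested, with a median log2 change of 1.64 beside 0.02 for all genes. In Nr6a1-/- cells, in which no change of Nr6a1os was called, 5 of 6 rose, beside 1026 higher among all genes, with a median of 2.51 beside -0.02. Of these, Bambi (0.58) was not called without d4 Nr6a1-/- replicate 1 (0.55, FDR = 0.128). Pmepa1, which retains receptor-regulated Smads, rose by 3.94 (edgeR FDR = 1.55e-14) and 4.25 (FDR = 5.54e-15) in wildtype and Nr6a1-/- cells. Smad7, which blocks the receptors, rose by 1.60 and 3.84, and the rise was larger in Nr6a1-/- cells (difference 2.24, FDR = 0.00135, and 2.42 without d4 wildtype replicate 2). Skil, a repressor of Smad-bound genes, rose by 2.41 and 3.38 (difference 0.97, FDR = 0.0163), but its difference was not called without d4 wildtype replicate 2 (0.75, FDR = 0.0945). Without added Gdf11, at d4, both genes were lower in the mutant (Smad7 -2.11, edgeR FDR = 7.33e-05, Skil -0.94, FDR = 0.000378). Both stayed called without d4 wildtype replicate 2 (-2.29 and -0.72). At d4G neither differed past the threshold (0.14, FDR = 0.793 and 0.03, FDR = 0.944). The larger rises thus went with lower mutant levels at d4, and not with called higher levels at d4G.

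Among the ligand, receptors and Smads themselves, 8 of 9 could be tested. Under Gdf11, 4 rose and 0 fell in wildtype cells, where 28.8% of all genes were called, with a median of 0.31 beside 0.02 for all genes, namely the receptors Tgfbr1 (0.59) and Acvr1b (1.45), and Smad2 (1.01) and Smad4 (0.36). In Nr6a1-/- cells the transcript of Gdf11 rose (0.79, edgeR FDR = 0.00735) and Smad3 fell (-0.80, FDR = 0.00118), with a list median of 0.04 beside -0.02, in the comparison that called 18% of all genes. The difference in response passed for Gdf11 (1.16, FDR = 0.0158) and Smad3 (-1.07, FDR = 0.0158), beside 2.66% of all genes called. It did not pass for Tgfbr1, Acvr1b, Smad2 and Smad4 (FDR = 0.372, 0.112, 0.135 and 0.379). Without d4 Nr6a1-/- replicate 1 that of Smad2 was called (-0.94, FDR = 0.0281). The cells' own Gdf11 transcript rose from d3 to d4 in wildtype (2.24, FDR = 3.48e-10, and 2.33 without d4 wildtype replicate 2) and Nr6a1-/- cells (1.27, FDR = 0.000139), and before that from d2.5 to d3 in wildtype (1.40, FDR = 0.000812) and from d2 to d2.5 in Nr6a1-/- cells (1.53, FDR = 0.00145). Its difference between genotypes was not called from d2 to d2.5 (FDR = 0.384), d2.5 to d3 (FDR = 0.249) or d3 to d4 (FDR = 0.0781). The last was called without d4 Nr6a1-/- replicate 1 (-1.15, FDR = 0.0284). At d4, where 18.9% of all genes were called, it was lower in Nr6a1-/- cells (-1.72, SE 0.203, edgeR FDR = 3.82e-08, and -1.81 without d4 wildtype replicate 2). Acvr1b (1.42, FDR = 0.00266), Smad3 (1.14, FDR = 4.78e-06) and Smad4 (0.39, FDR = 0.0399) were higher there, and Smad2 was called as well without d4 Nr6a1-/- replicate 1 (0.65, FDR = 0.0217).

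Genes that Nr6a1 is known to repress or to act with in pluripotent cells were compared between genotypes, and all 6 could be tested. Pou5f1, the pluripotency factor that Nr6a1 represses, was higher in Nr6a1-/- cells at d2.5 (0.82, edgeR FDR = 0.0264) and d3 (1.56, SE 0.271, FDR = 9.74e-05). Of the 6 genes, 1 was lower at d2, Tdgf1 (-1.01), beside 4.07% of all genes called, and at d2.5, beside 6.45%, Pou5f1 was the only one called. At d3, beside 10.8%, 1 was higher and 1 lower, the latter being Dppa3 (-0.91, FDR = 0.00857), and at d4, beside 18.9%, 1 was higher and 2 were lower. At d4G, beside 7.9%, Fgf4 (2.08) was higher and Sox2 (-1.52), Dppa3 (-2.52) and Tdgf1 (-2.13) were lower. Of the lower ones at d4, Tdgf1 (-1.71) was not called without d4 wildtype replicate 2 (-0.99, FDR = 0.178). The higher gene at d4 was Fgf4 (2.45, SE 0.159, FDR = 1.41e-14, and 2.69 without d4 wildtype replicate 2), a growth factor of the epiblast. The list median was 0.24 at d3, -0.36 at d4 and -1.06 at d4G, beside 0.00, 0.02 and 0.01 for all genes. Under Gdf11, Sox2 and Fgf4 fell in both genotypes, as Nr6a1 did, with -1.28 and -3.36 in wildtype (-1.05 and -3.11 without d4 wildtype replicate 2) and -2.51 and -3.73 in Nr6a1-/- cells.

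Of the 6 genes around the RNA-binding proteins Lin28a and Lin28b, which block maturation of let-7 microRNAs, 2 rose and 2 fell under Gdf11 in wildtype cells, beside 28.8% of all genes called (median 0.04). Igf2bp3 was not called without d4 wildtype replicate 2 (0.26, edgeR FDR = 0.0519), which left 1 that rose. In Nr6a1-/- cells 2 rose and 3 fell, beside 18% (median -0.16). Lin28a fell by 1.12 in wildtype (edgeR FDR = 1.81e-11) and by 2.01 in Nr6a1-/- cells (FDR = 6.41e-18), with a difference between them that passed (-0.88, FDR = 9.02e-05, and -0.93 without d4 wildtype replicate 2). Lin28b fell by 0.64 and 0.70. Like Nr6a1, Lin28a was higher in Nr6a1-/- cells at d3 (0.37, FDR = 0.00381) and d4 (0.35, FDR = 0.00399), but at d4G it was lower (-0.53, FDR = 0.000781).

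Genes with profiles most like those of both members were named by Pearson's r of log2 CPM over the 10 group means, as a description with no test, since the groups share cells of 2 lines. Over 9730 other genes, the profile of Nr6a1 was most like those of Hspb11 (r = 0.985), Gm26641 (0.955), Ndufb3 (0.949), Nubpl (0.943) and Ndufv2 (0.941). Most opposed were 6330403K07Rik (-0.972), Ppp1r18 (-0.94) and Lifr (-0.935), a cytokine receptor. Gm26641 stood at 11.1 CPM in d4 and 1.83 CPM in d4G wildtype cells, and 6330403K07Rik at 18.0 and 118 CPM. For Nr6a1os the most alike were Tmed7 (0.971), Mlxip (0.951), Pank3 (0.942), Slit2 (0.936) and Tgfb2 (0.935), and the most opposed were Ecsit (-0.953), Ppan (-0.935) and Rpusd3 (-0.925). Tgfb2, a ligand of the transforming growth factor β family, stood at 2.07 and 17.3 CPM in d4 and d4G wildtype cells and at 3.84 and 4.71 CPM in Nr6a1-/- cells. Between Nr6a1 and Nr6a1os themselves r was -0.334 over the 10 group means.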

How the data were processed

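The authors deposited a table of whole-number counts per gene and library for 30 libraries, 3 in each of 10 groups, with replicates not pooled. Per the labels and the methods of the study, RNA was primed at the poly(A) tail, and STAR, edgeR and the mm10 build were used, with versions not given in the sources used here. Nor do these sources give the annotation, the counter, its strand setting or any collapsing of molecular identifiers, so that counts may include amplified copies. The deposited tables of the authors' own comparisons were not used.

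A gene was tested if 2 libraries of 1 group exceeded 10 counts and 2 CPM (12149 genes, 41985 rows dropped, at least 99.2% of the counts of each library). Counts were fitted in edgeR 4.0.16 (R 4.3.3) with TMM factors as 1 model of 10 groups with 20 residual degrees of freedom, tested 2-sided with glmQLFTest in 17 comparisons, and called at a Benjamini-Hochberg FDR below 0.05. Standard errors and 95% intervals were set to match the p-values. Exact permutation tests and exact binomial intervals used scipy 1.17.1. The procedure was tested on simulated data. No 2 libraries held the same counts. The alternatives were RLE factors, no factors, no filter, DESeq2 1.42.0, only the groups compared, thinning to the smallest library, a replicate block, and leaving out each library. For the gene lists, leaving out d4 wildtype replicate 2 or d4 Nr6a1-/- replicate 1 was added after seeing the data. The 2 members were taken by gene symbol and not by their values, though earlier results of these data were known. The gene lists were chosen with those earlier results known. Named are members of these lists past the threshold, and for each gene the 5 most alike and 3 most opposed profiles among genes with at least 10 CPM in a group.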

Additional observations from a re-analysis of the deposited data

Results flagged for a closer look

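The change of Nr6a1os under Gdf11 differed between genotypes by a test of the difference itself. The log2 change from d4 to d4G was 2.36 in wildtype and -0.13 in Nr6a1-/- cells, a difference of -2.49 (SE 0.486, edgeR FDR = 0.00151). The values rest on 18 and 71 counts in wildtype and 32 and 26 counts in Nr6a1-/- libraries at d4 and d4G. All 3 wildtype d4G libraries lay above all 3 wildtype d4 libraries, and the mutant libraries of both groups overlapped. Summed endoderm markers were 38.7 to 45.0 CPM at d4 and 43.8 to 52.6 CPM at d4G in wildtype cells, and 2.98 to 6.29 CPM and 2.40 to 6.01 CPM in Nr6a1-/- cells. Summed NMP markers were 372 to 382 CPM at d4 and 404 to 430 CPM at d4G in wildtype cells. In Nr6a1-/- cells they were 382 to 492 CPM and 196 to 223 CPM. The part of both marker sets in this result was not tested.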

How the results depend on the processing

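Of 477 values of both genes under the alternatives, 447 kept their direction and their side of the threshold, and none of the 11 that changed direction had passed it. Where no cause is given, it was not tested. For Nr6a1os at d4, the genotype difference was lost without a filter (1.27, FDR = 0.0835), after thinning (1.42, FDR = 0.057) and in DESeq2 (1.30), which lost the d4G difference (-1.22) and the wildtype rise from d2.5 to d3 (2.30) as well. Fitting only the groups compared lost the d4G difference of Nr6a1 (0.66) and called its change from d2 to d2.5 in Nr6a1-/- cells (0.24, FDR = 0.0426) and its difference in step from d2.5 to d3 (0.51, FDR = 0.0478). Thinning turned the wildtype step of Nr6a1os from d2 to d2.5 to 0.80, its difference in step from d2.5 to d3 to 0.27, and the share difference at d2.5 to -0.0888 points, and the Gdf11 increase of the wildtype share was 36.2 points.

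With a replicate block, the difference between genotypes in the d3 to d4 step of Nr6a1 was called (0.49, FDR = 0.039), and the block changed no other call of either gene. All 3 same-numbered pairs correlated above 0.1 in 1 of 13 comparisons, and 18 of 39 libraries correlated best with their own number. All 3 did so from d4 to d4G in wildtype cells (r = 0.41, 0.06 and 0.48) and from d3 to d4 in Nr6a1-/- cells. The numbers were not taken as pairs in the main fit, but these values do not show that pairing was absent.

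Leaving out 1 library each, log2 values ran from 0.97 to 1.54 for Nr6a1os at d4, -1.30 to -1.12 at d4G, -0.77 to 0.18 from d2 to d2.5, -0.0054 to 0.44 from d3 to d4 and -0.27 to 0.18 from d4 to d4G in Nr6a1-/- cells, and -0.43 to 0.52 for its difference in step from d2 to d2.5. For Nr6a1 they ran from 0.37 to 0.91 at d4G, -0.48 to -0.27 from d3 to d4 in Nr6a1-/- cells, and -0.019 to 0.079, 0.39 to 0.58 and -0.80 to -0.27 for the differences in step from d2 to d2.5, d3 to d4 and d4 to d4G. The share difference at d4 ran from -0.118 to 0.606 points.

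Counts of genes called moved by over 1.5 times for the differences in step from d2 to d2.5 (74) and d2.5 to d3 (99) without a filter (317 and 359), with the block (117 and 149) and with only the groups compared (121 and 180). That fit gave 1398 for genotypes at d4 (2294), 440 for the d3 to d4 difference (695) and 212 for the d4 to d4G difference (323). Leaving out 1 library gave 304 to 392 at d2 (494), 478 to 775 at d2.5 (784), 871 to 1084 at d3 (1308), 1487 to 2625 at d4 and 702 to 775 at d4G, and for the 4 differences in step 26 to 209, 47 to 264, 443 to 1157 and 205 to 823. Their highest values, 209 and 264, came with d2.5 wildtype replicate 3 left out, and 1157 and 823 with d4 Nr6a1-/- replicate 1 left out. Nr6a1os had 4 to 12 counts in each group at d2 and d2.5.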
